A study of Mus musculus with 13 samples.

Results

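The 10 genes described here serve protein folding in the endoplasmic reticulum (ER) and the response to unfolded proteins. They are the chaperones Hspa5, Hsp90b1, Calr and Canx, the disulfide isomerases Pdia4 and Pdia6, and the co-chaperone Dnajb9. The others are the stress sensors and transcription factors Ern1, Atf6 and Xbp1. All genes were taken by symbol from a table of 22656 mouse genes. All 10 were found and passed the filter on low values, which left 12403 genes. RNA was measured in mouse melanoma cells of the line B16F10-TR-shApoe, which carries a hairpin RNA against the mouse Apoe gene. The hairpin was present in every sample. Cells had been injected into the tail vein of APOE2 or APOE3 knock-in mice, which carry a human apolipoprotein E allele, and the host allele is the only labelled difference (8 APOE2 and 5 APOE3 libraries). Lungs were taken on day 15, and living GFP-positive, CD45-negative tumour cells were sorted. The labels give no age, sex or strain of the hosts, and do not say whether the line is a single clone or whether each library came from 1 mouse. The p-values below therefore measure the spread between these libraries.

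Secreted and membrane proteins enter the ER through the translocon and fold there with the help of chaperones. When unfolded proteins build up, the membrane sensors IRE1 (encoded by Ern1), ATF6 and PERK signal to the nucleus. IRE1 removes a short intron from Xbp1 mRNA in the cytoplasm, which turns it into the message of an active transcription factor, and ATF6 is cut in the Golgi to release another. Both factors raise transcription of chaperone genes through a short promoter element, the ER stress response element (ERSE), and the chaperone BiP (Hspa5) in turn binds the sensors and holds them inactive. Melanoma cells make large amounts of melanosomal glycoproteins, which fold in the ER.

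The ERSE is shown first because it is the promoter feature that several of these genes share. Promoters were taken from RefSeq (GRCm38.p6) as the 250 bases before the transcription start, with entries for 9 of the 10 genes, the exception being Atf6. The pattern searched, on both strands, was CCAAT and CCACG with any 9 bases between them. It was found in 5 of the 9 promoters, against 0.113% of all 32851 promoters in the table (37 promoters). The ERSE was already known as an element of chaperone promoters, so these shares are a description of the sequences and not a test. The matches read as follows on the strand of the motif, with its fixed letters in capitals.
Hspa5 (−65 to −47): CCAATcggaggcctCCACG
Hsp90b1 (−212 to −194): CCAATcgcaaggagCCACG
Hsp90b1 (−107 to −89, minus strand of the promoter): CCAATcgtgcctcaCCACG
Calr (−162 to −144, minus strand of the promoter): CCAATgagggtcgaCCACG
Canx (−145 to −127): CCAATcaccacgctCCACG
Pdia6 (−98 to −80): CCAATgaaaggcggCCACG

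Positions count back from the base before the start site. Pdia4, Dnajb9, Xbp1 and Ern1 held no exact match in these windows, which says only that these letters were not there. The compact variant ERSE-II (ATTGG and CCACG with any 1 base between them) was in 0 of the 9 promoters and in 0.0304% of all promoters. The core of the unfolded protein response element, TGACGTG, was in the Hspa5 promoter alone among the 9 and in 1.65% of all promoters. It does not overlap the ERSE. The Hspa5 promoter (chr2:34771840-34772089, plus strand) is printed whole as the promoter with both kinds of match, with the TGACGTG core and the exact ERSE match in capitals. Stretches that come near the ERSE but differ in some of its letters were not searched for and are not marked. The promoter of Pdia4 (chr6:47813513-47813762, minus strand) is printed as that of the gene whose call below depends on 1 library.
Hspa5: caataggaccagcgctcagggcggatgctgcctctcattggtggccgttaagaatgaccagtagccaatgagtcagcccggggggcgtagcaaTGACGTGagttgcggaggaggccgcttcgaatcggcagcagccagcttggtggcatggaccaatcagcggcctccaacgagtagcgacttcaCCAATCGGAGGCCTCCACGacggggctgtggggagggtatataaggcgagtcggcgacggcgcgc
Pdia4: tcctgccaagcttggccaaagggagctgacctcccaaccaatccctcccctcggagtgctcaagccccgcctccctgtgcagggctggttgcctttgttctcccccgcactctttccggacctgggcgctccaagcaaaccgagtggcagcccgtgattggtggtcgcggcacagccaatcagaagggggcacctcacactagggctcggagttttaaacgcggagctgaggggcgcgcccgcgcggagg

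The libraries held 7080308 to 13039989 recovered reads. The 10 genes together took 0.709% ± 0.043 of reads in APOE2 (SD, n = 8) and 0.695% ± 0.11 in APOE3 (SD, n = 5), with ranges of 0.646% to 0.757% and 0.576% to 0.83%. All 8 melanocyte markers were read in every library, and they summed to 303000 to 462000 normalised counts in APOE2 and 220400 to 334300 in APOE3. Of these Dct, a melanin synthesis enzyme, made up most of the sum (mean 232500 in APOE2 and 150400 in APOE3). It had a log2 fold change of 0.64 (limma adjusted p = 0.126, and 0.0471 without APOE3 replicate 2), the highest of the 8. The log2 fold change was above 0 for 5 of the 8 markers and below 0 for 3, with a median of 0.045 and a lowest value of −0.18. Markers of other lung cells also moved with genotype: the summed normalised counts of 10 lung epithelial markers were 636 to 4119 in APOE2 and 3411 to 21670 in APOE3, and of 9 leukocyte markers 443 to 2364 and 1871 to 12180. By limma 6 of 9 tested epithelial markers and 2 of 5 leukocyte markers were called lower in APOE2, where 0.379% of all genes were. In the epithelial list the mean of Scgb1a1 was higher in APOE2 (157 and 29.5), with 1065 in the highest APOE2 library. The leukocyte sum is mostly Lyz2 (mean 1162 in APOE2 and 5288 in APOE3), which alveolar type II epithelial cells also express. Cd74 (32.2 and 116) was the other leukocyte marker called lower in APOE2 (limma adjusted p = 0.03015). Means of Cd68 (29.1 and 42.3), Ptprc, Cd3e and Cd79a were also lower in APOE2, and that of Itgam was higher. Fcer1g (43.7 and 49.8) and S100a8 (122 and 118) had similar means in both groups. The sort had selected CD45-negative cells, and which cells the reads of these markers came from was not tested. Plasma cells are rich in ER chaperones, and 8 of their markers summed to 10.1 to 106 in APOE2 and 45.2 to 355 in APOE3, with Tnfrsf17, Derl3 and Cd79a at 0 in at least 10 of the 13 libraries. Endothelial markers summed to 528 to 848 and 729 to 1620, and fibroblast and smooth muscle markers to 100.2 to 442 and 238 to 1812. The log2 fold change was below 0 for all 8 endothelial markers and for all 6 tested fibroblast and smooth muscle markers. In each of these lists 1 was called lower in APOE2, Calcrl (limma adjusted p = 0.03015) and Acta2 (limma adjusted p = 0.0216). In bulk libraries, fewer cells of a type and less RNA per cell cannot be told apart. The part of plasma, endothelial and fibroblast RNA in the results below was not tested.

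Across host genotypes, 0 of the 10 genes had an adjusted p-value under 0.05 by limma (Benjamini-Hochberg over all 12403 genes), where 0.79% of all genes were called. The count was also 0 with edgeR, where 1.11% of all genes were called, and with DESeq2, where 2.51% were. At an unadjusted limma p-value under 0.05 there were 4 of the 10 (Atf6, Pdia4, Dnajb9 and Hsp90b1), all with positive values in APOE2 over APOE3, beside 14.2% of all genes in either direction, 7.51% with positive and 6.71% with negative values. With edgeR and with DESeq2 it was 3 of the 10, without Pdia4, beside 13.2% and 14.5% of all genes. Without the variance trend in limma it was Atf6 alone, beside 12.9% of all genes. It was 2 of the 10 without APOE3 replicate 1 (Atf6 and Hsp90b1, beside 16.3% of all genes) and without APOE3 replicate 2 (Atf6 and Pdia4, beside 12.5%). It was also 2 with an epithelial marker covariate (Atf6 and Dnajb9, beside 6.93%) and with a leukocyte one (Atf6 and Pdia4, beside 3.51%). Atf6 did not pass on replicates 1 to 5 alone. There Hsp90b1 and Dnajb9 passed with a replicate block (beside 11%), and both with Canx without it (beside 11.8%). With equal library totals it was Atf6, Pdia4, Canx and Dnajb9 (beside 14.2%). Canx had negative values in both. The log2 fold change was above 0 for 8 of the 10, against 50.1% of all genes, and the median over the 10 was 0.086, against 0.00037 over all genes. The number above 0 was lowest, at 6, without APOE3 replicate 1 and without APOE3 replicate 2, and highest, at 9, with the leukocyte covariate. In 0 of the 10 genes did the groups stand fully apart, which 0.984% of all genes did.

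**Figure D1:**
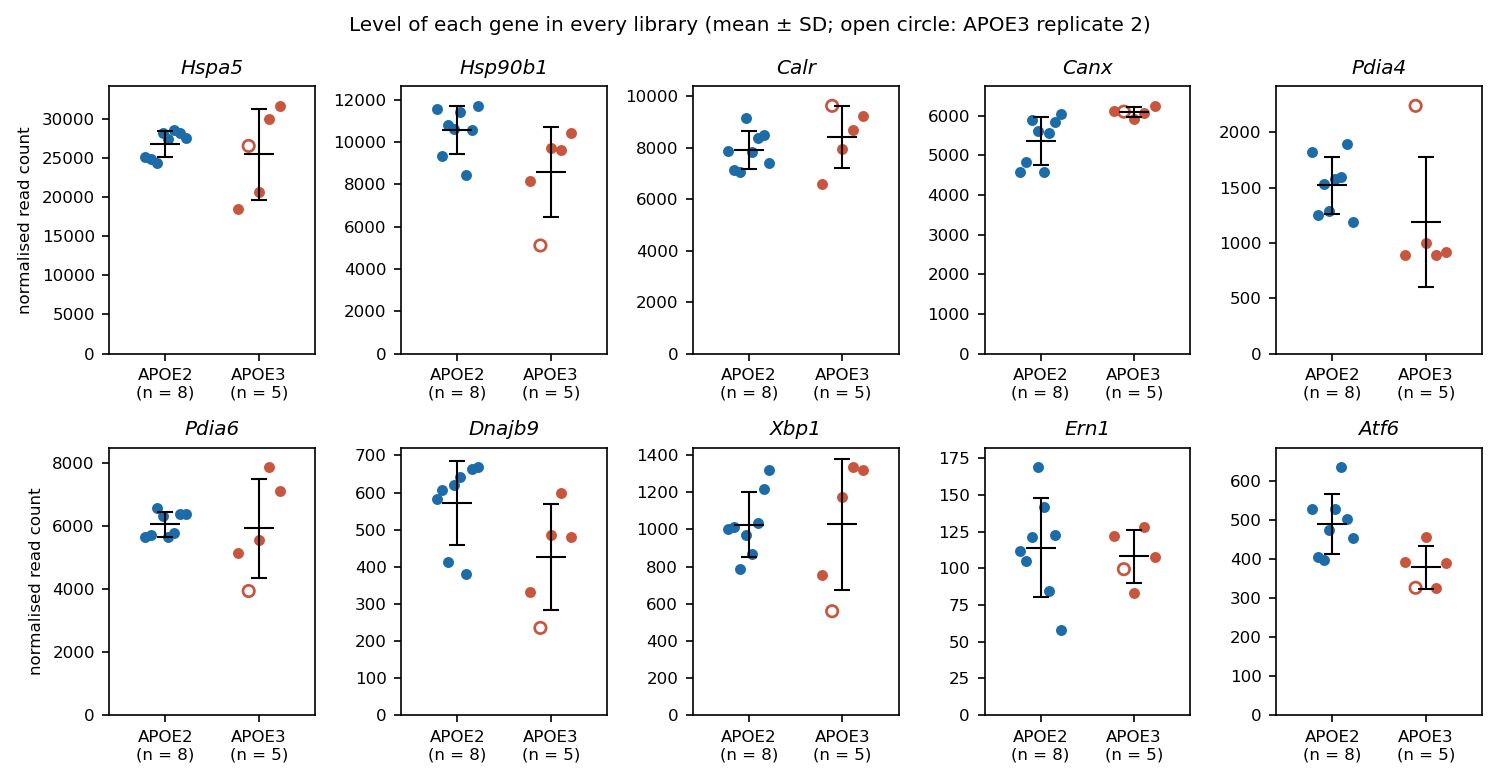
Normalised read count of each of the 10 genes (vertical axes, starting at 0) in every library, by host genotype; bars give the mean ± SD. The groups overlap in every panel, and the open circle is APOE3 replicate 2. Among the APOE3 libraries it is the highest for Pdia4 (2241) and Calr (9632). It is the lowest for Hsp90b1 (5106), Pdia6 (3929.8), Dnajb9 (235) and Xbp1 (559), and for Atf6 (326.5), where replicate 4 is nearly level (326.7).

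Hspa5 (ENSMUSG00000026864, chr2:34771970-34777547, plus strand, GRCm38) encodes BiP, the HSP70 chaperone of the ER lumen and the regulator of all 3 stress sensors. It ranked between 13 and 23 among all genes by reads in a library. Its normalised counts had a lowest, median and highest value of 24393, 27483 and 28635 in APOE2. In APOE3 replicates 1 to 5 they were 18475, 26583, 20644, 30084 and 31714. The APOE2 libraries lay within a narrow band, and the APOE3 libraries fell on either side of it, 2 below, 1 inside and 2 above. The fold change was 1.07 (95% interval 0.891 to 1.29, limma adjusted p = 0.77), and the SD of log2 values was 0.34 in APOE3 against 0.092 in APOE2.

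Hsp90b1 (ENSMUSG00000020048, chr10:86690209-86705509, minus strand) encodes GRP94, the HSP90 chaperone of the ER, known for folding integrins and Toll-like receptors. Normalised counts in APOE2 were 8446 at the lowest, 10694 at the median and 11706 at the highest, and in APOE3 8141, 5106, 9691, 9597 and 10434. Of the 8 APOE2 libraries 6 lay above the highest APOE3 library, and APOE3 replicate 2 lay below all others. The fold change was 1.26 (95% interval 1.03 to 1.54), with a limma p of 0.0268 and an adjusted p of 0.29. Without APOE3 replicate 2 the log2 fold change went from 0.33 to 0.15 (limma adjusted p = 0.574). Hsp90b1 overlaps exons of 1810014B01Rik on the opposite strand, which had 47.5 to 173 normalised counts.

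Dnajb9 (ENSMUSG00000014905, chr12:44205559-44210326, minus strand) encodes ERdj4, a J-domain partner of BiP that is a target of spliced XBP1 and brings BiP to IRE1. The APOE2 values were 379, 613 and 668 (lowest, median, highest), and the APOE3 values 333, 235, 486, 599.7 and 479. In APOE2, 5 libraries lay above every APOE3 library while replicates 3 and 6 lay among the lower APOE3 values. The fold change was 1.38 (95% interval 1.05 to 1.83), with a limma p of 0.0242 and an adjusted p of 0.277, and without APOE3 replicate 2 the log2 fold change went from 0.47 to 0.27 (limma adjusted p = 0.533).

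The lectin chaperones calreticulin and calnexin hold newly made glycoproteins through their trimmed sugars, calreticulin in the lumen and calnexin in the membrane. Calr (ENSMUSG00000003814, chr8:84841850-84846934, minus strand) had 7052, 7848 and 9174 normalised counts in APOE2 (lowest, median, highest). In APOE3 it had 6586, 9632, 7954, 8684 and 9237. The groups covered almost the same range, with a fold change of 0.945 (95% interval 0.809 to 1.11, limma adjusted p = 0.781).

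Canx (ENSMUSG00000020368, chr11:50293961-50325673, minus strand) had 4582, 5589 and 6052 normalised counts in APOE2 and 6129, 6107, 5913, 6082 and 6254 in APOE3. The 5 APOE3 libraries lay within a narrow span, and 7 of the 8 APOE2 libraries lay below all of them, with replicate 8 inside the APOE3 range. The fold change was 0.876 (95% interval 0.759 to 1.01), with a limma p of 0.0705 and an adjusted p of 0.395. Canx had the reverse of the usual spread: the SD of log2 values was 0.029 in APOE3 and 0.17 in APOE2. Over the 10 genes the SD was larger in APOE3 for 7, beside 66.9% of all genes, and the exceptions were Canx, Ern1 and Atf6.

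Protein disulfide isomerases make and reshuffle disulfide bonds. Pdia4 (ENSMUSG00000025823, chr6:47796141-47813430, minus strand), also called ERp72, had 1188, 1557 and 1897 normalised counts in APOE2 (lowest, median, highest). In APOE3 it had 891, 2241, 999, 892 and 921. All 8 APOE2 libraries lay above 4 of the APOE3 libraries and below the remaining one, replicate 2. With all libraries the fold change was 1.36 (95% interval 1.05 to 1.76), with a limma p of 0.0213 and an adjusted p of 0.266. Without APOE3 replicate 2 the log2 fold change went from 0.44 to 0.70 ± 0.12 (SE), with a limma adjusted p of 0.012. This was the only call among the 10 genes in any of the 13 fits that left out 1 library, and it compares 8 libraries with 4. In that fit 0.614% of all genes were called.

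Pdia6 (ENSMUSG00000020571, chr12:17266545-17284770, plus strand), also called P5, is known for turning off activated IRE1. It had 5636, 6044 and 6563 normalised counts in APOE2 and 5146, 3929.8, 5533, 7851 and 7108 in APOE3. The APOE2 libraries again fell in a narrow band inside the APOE3 range, and the fold change was 1.05 (95% interval 0.873 to 1.26, limma adjusted p = 0.848). Its sign changed without APOE3 replicate 2 (log2 fold change −0.065). Pdia6 overlaps exons of Atp6v1c2 on the opposite strand, which had 0 to 113 normalised counts.

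**Figure D2:**
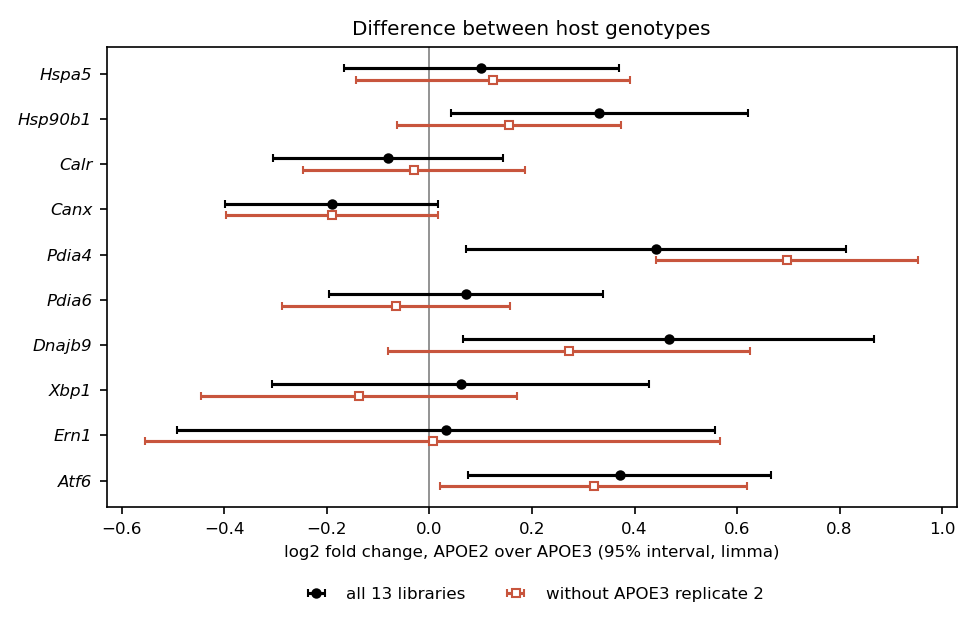
Log2 fold change of each gene, APOE2 over APOE3 (horizontal axis), with its 95% interval by limma, from all 13 libraries (black) and without APOE3 replicate 2 (open squares). With all libraries the intervals of Hsp90b1, Pdia4, Dnajb9 and Atf6 lie above 0; without replicate 2 those of Pdia4 and Atf6 do, and Pdia4 moves from 0.44 to 0.70.

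Of the sensors, Ern1 (ENSMUSG00000020715, chr11:106394650-106487852, minus strand) encodes IRE1, the kinase and RNase that splices Xbp1. It had 57.7, 117 and 169 normalised counts in APOE2 (lowest, median, highest) and 122, 99.4, 83.3, 128 and 108 in APOE3. These values rest on 63 to 165 reads a library, the fewest of the 10 genes, and the APOE2 libraries extended both above and below the APOE3 range. The fold change was 1.02, and its 95% interval of 0.711 to 1.47 was the widest of the 10 on the log2 scale (limma adjusted p = 0.971).

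Atf6 (ENSMUSG00000026663, chr1:170704674-170867771, minus strand) encodes the sensor that is itself a membrane-bound transcription factor. Its normalised counts were 399, 489.9 and 636 in APOE2 and 393, 327, 458, 327 and 389.9 in APOE3. All 8 APOE2 libraries lay above 4 of the APOE3 libraries, and 5 lay above the fifth as well, replicate 3. The fold change was 1.29 (95% interval 1.05 to 1.59), with a limma p of 0.016, the smallest of the 10, and an adjusted p of 0.239. It was the member whose value depended least on APOE3 replicate 2 among the 4 with an unadjusted p under 0.05: the log2 fold change went from 0.37 to 0.32. The mRNA level does not show how much ATF6 protein was cut.

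Xbp1 (ENSMUSG00000020484, chr11:5520659-5525893, plus strand) had 788, 1008 and 1322 normalised counts in APOE2. In APOE3 it had 752, 559, 1174, 1335 and 1318. Of the APOE3 libraries 2 lay below the APOE2 range, 2 in its upper part and 1 just above it, with a fold change of 1.04 (95% interval 0.808 to 1.35, limma adjusted p = 0.918). These counts do not separate unspliced from spliced message, because the library kit reads the end of the transcript. The intron that IRE1 removes is shown in capitals for this reason, with 12 bases of exon on each side (chr11:5524279-5524304, exon 4 of 5 of GENCODE transcript Xbp1-201).
Xbp1: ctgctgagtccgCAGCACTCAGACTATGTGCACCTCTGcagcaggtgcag

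It was found as the pair of IRE1 cleavage sites (CNGCAG, cut after its first G) 26 bases apart in the coding sequence whose removal lengthens the reading frame, from 267 to 371 codons. It lies 1289 bases before the end of the 2129-base transcript.

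The 10 genes did not vary as a single block among libraries. The mean of each genotype was subtracted from the log2 values, since the genotypes could otherwise produce a correlation, and p-values came from 100000 permutations of libraries within genotypes. Of the 9 genes paired with Hspa5, only Calr passed: r = 0.785 (permutation p = 0.00412, adjusted over 9 pairs 0.0371) and rho = 0.786 (permutation p = 0.00317, adjusted 0.0285) over 13 libraries. Within APOE2 alone r was 0.76 (8 libraries), and without APOE3 replicates 1 and 3, the libraries farthest from the Hspa5 median, it was 0.637. Without APOE3 replicate 2, r with Hspa5 was 0.802 for Calr, 0.744 for Pdia6 (0.445 with it) and 0.63 for Xbp1 (0.393 with it). For the other genes it then ran from −0.0949 (Atf6) to 0.42 (Dnajb9). These values without APOE3 replicate 2 were not tested. When all 45 pairs among the 10 genes were tested, a step added after the data were seen, 0 pairs passed after adjustment, and 3 shared the smallest adjusted value of 0.0834.

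Those 3 were Hspa5 with Calr, Dnajb9 with Xbp1, and Dnajb9 with Hsp90b1. Dnajb9 and Xbp1 had r = 0.809 (permutation p = 0.00527) and rho = 0.791 (permutation p = 0.01, adjusted over 45 pairs 0.201). Without APOE3 replicate 2, the lowest library for both genes, r was 0.691, and within APOE2 alone it was 0.466. Without the 2 libraries farthest from the Dnajb9 median (APOE3 replicate 2 and APOE2 replicate 6) r was 0.835. Dnajb9 and Hsp90b1 had r = 0.807 (permutation p = 0.00556) and rho = 0.758 (permutation p = 0.0134, adjusted 0.201), with 0.677 without APOE3 replicate 2 and 0.594 within APOE2. Without the 2 libraries farthest from the Hsp90b1 median (APOE3 replicate 2 and APOE2 replicate 6) it was 0.461.

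**Figure D3:**
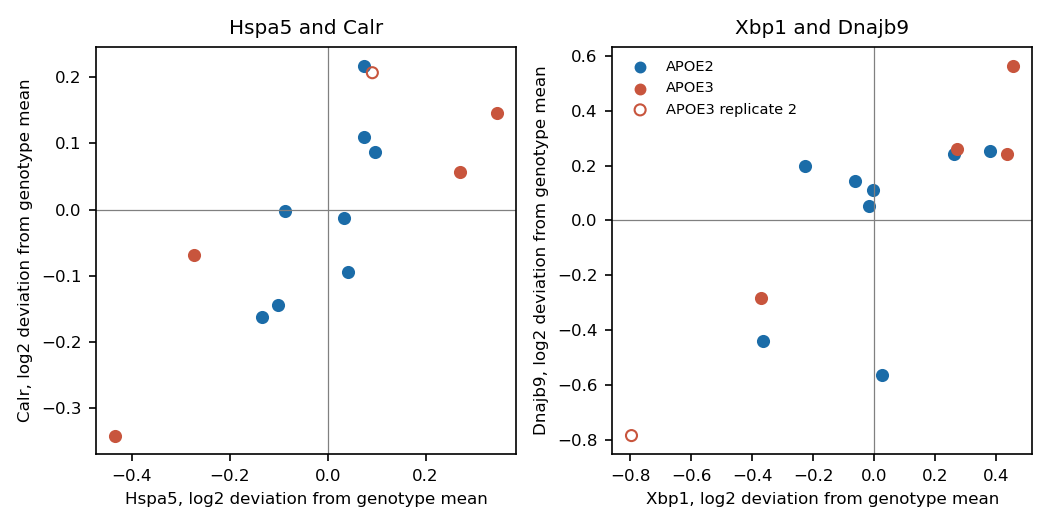
Deviation of each library from the mean of its genotype on the log2 scale, for Hspa5 (horizontal) against Calr (vertical) and for Xbp1 against Dnajb9; each point is a library and the open circle is APOE3 replicate 2. Calr follows Hspa5 in both genotypes (r = 0.785), whereas for Dnajb9 and Xbp1 r is 0.809 with APOE3 replicate 2, at the lower left, and 0.691 without it.

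The genes split in APOE3 replicate 2. In that library Pdia4 deviated from the APOE3 mean by 1.02 on the log2 scale, while Hsp90b1 deviated by −0.71, Pdia6 by −0.55, Dnajb9 by −0.78 and Xbp1 by −0.80. Calr deviated by 0.21, Hspa5 by 0.091, Canx by 0.0026, Ern1 by −0.10 and Atf6 by −0.20. The correlation of Pdia4 with Hsp90b1 was −0.708 over the 13 libraries (permutation p = 0.115, adjusted over 45 pairs 0.431; rho = −0.434, permutation p = 0.17) and −0.21 without this library. The library had the largest share of reads on Gm42418, an rRNA-like transcript, at 3.74%, against 0.662% to 3.03% in the others. Its lung epithelial markers summed to 8020, inside the APOE3 range, and its melanocyte markers to 334300, the highest of the 5 APOE3 libraries. The part of these in its values was not tested.

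**Figure D4:**
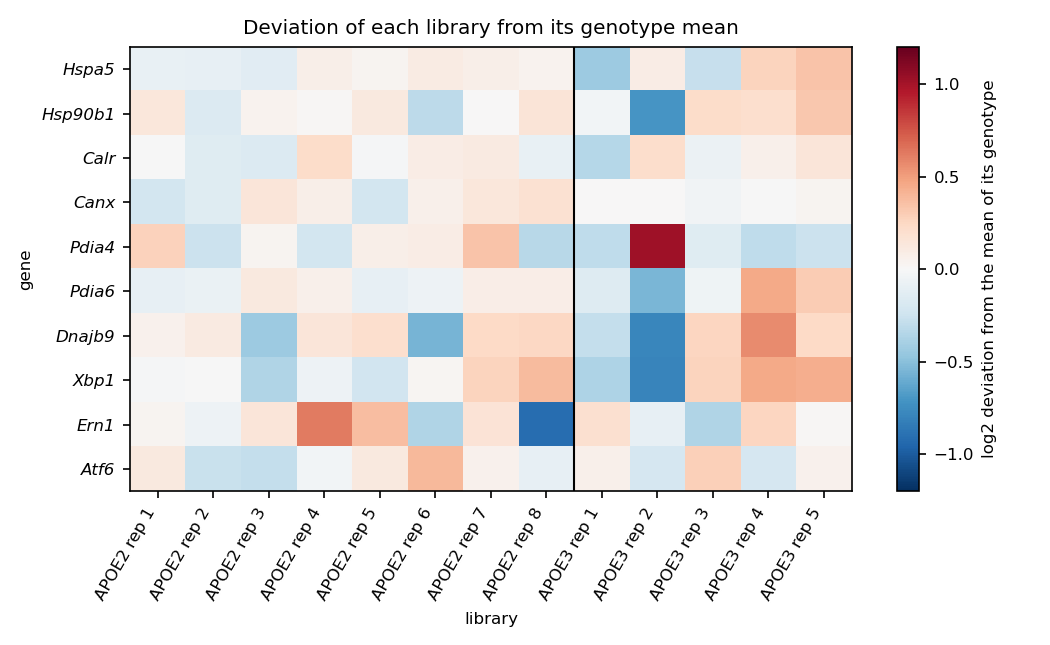
Deviation of the 10 genes (rows) from the mean of their genotype in each of the 13 libraries (columns), on a log2 colour scale from −1.2 to 1.2; the line divides APOE2 from APOE3. Hspa5 and Pdia6 are pale in APOE2 and Canx in APOE3, and APOE3 replicate 2 shows Pdia4 at 1.02 beside Xbp1 at −0.80.

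Among the 9679 other genes averaging 50 normalised counts or more, Calr had rank 23 by its correlation with Hspa5, and the other 8 members had ranks from 960 (Pdia6) to 6074 (Atf6). The 5 genes closest to Hspa5 outside the list were Fam53b (r = 0.959), Cdr2 (0.856), 1700024J04Rik (0.852), Cep135 (0.849) and Miga2 (0.838), over the same 13 libraries. Within the 8 APOE2 libraries these were 0.798, 0.485, 0.742, 0.177 and 0.0033. They were picked as the highest of many, so the values are a description.

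The wider folding pathway was described through 7 lists by role, with 88 genes in all, of which 86 passed the filter. By limma 0 of the 86 were called, and 10 (11.6%) had an unadjusted p under 0.05, 9 with positive and 1 with negative values, beside 14.2% of all genes. With edgeR 0 were called, and with DESeq2 2 were, Sec61b and Sec62, where 2.51% of all genes were called. The log2 fold change was above 0 for 52 of the 86 (60.5%), against 50.1% of all genes.

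Genes of the translocon and signal peptidase, through which proteins enter the ER, held the smallest p-values. In this list 9 of 15 genes were above 0, the median was 0.088, and 4 had an unadjusted p under 0.05 (Sec62, Sec61b, Sec61g and Srpr). Sec62, which helps short precursors across the membrane, had 2536, 3127 and 4469 normalised counts in APOE2 (lowest, median, highest) and 2619, 1942, 2351, 2364 and 2356 in APOE3. Only APOE2 replicate 6 lay inside the APOE3 range. The difference on the log2 scale was 0.46 ± 0.12 (SE). Its adjusted p was 0.0669 by limma, 0.0613 by edgeR and 0.011 by DESeq2. Its exons overlap 4933429H19Rik on the opposite strand.

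Sec61b, a small subunit of the translocation channel, had 1821, 1996 and 3077 normalised counts in APOE2 and 1822, 768, 1361, 1563 and 1803 in APOE3, so that the groups met only at their edges. The log2 difference of 0.62 ± 0.17 (SE) had adjusted p-values of 0.0823 (limma), 0.0996 (edgeR) and 0.0353 (DESeq2). Sec61g, the other small subunit, had 447, 844 and 997 in APOE2 and 739, 223, 481, 264 and 707 in APOE3, and a log2 difference of 0.85 ± 0.24 (SE), with adjusted p-values of 0.100 (limma), 0.16 (edgeR) and 0.214 (DESeq2). All 3 passed the limma threshold without APOE3 replicate 1 (adjusted p = 0.0412, 0.033 and 0.0229 in that order), Sec62 and Sec61g without APOE2 replicate 6, and Sec61g without APOE3 replicate 5. These fits called 1.84%, 0.886% and 0.636% of all genes. Without APOE3 replicate 2, the lowest library for all 3, 0 were called and the list's median was −0.023.

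In the remaining lists 6 genes had an unadjusted p under 0.05. Of 14 partners of BiP and GRP94, 11 were above 0 with a median of 0.12, and 0 had an unadjusted p under 0.05; the smallest were Cnpy2 (log2 fold change 0.24, limma adjusted p = 0.41), Dnajb11 (0.21) and Sdf2 (0.34, overlapping Supt6 on the opposite strand). Of 8 genes of the lectin cycle, 6 were above 0 with a median of 0.043, led by Prkcsh at −0.28, the glucosidase II beta subunit, Mcfd2 at 0.38 and Ganab at 0.20, and 0 had an unadjusted p under 0.05. Of 15 disulfide genes, 10 were above 0 with a median of 0.084. Of these Prdx4, an ER peroxiredoxin, had a log2 fold change of 0.43 (limma adjusted p = 0.304), followed by Ero1lb (0.81) and Erp44 (0.30).

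Signalling genes beyond the 3 members were 14, including the PERK arm (Eif2ak3, Atf4, Ddit3, Ppp1r15a), with 6 above 0 and a median of −0.039. Creb3 had −0.38 (limma adjusted p = 0.329) and overlaps Tln1 and Gba2 on the opposite strand; it was followed by Rtcb, the ligase that joins the cut Xbp1 ends (0.20, overlapping Ascl4), and Creb3l2 (−0.20). Of the ER-associated degradation list 19 of 20 genes were tested, with 10 above 0 and a median of 0.0026, and 4 had an unadjusted p under 0.05. These were Selenok (log2 fold change 0.36, limma adjusted p = 0.201), Ube2g2 (0.46), the ubiquitin ligase Syvn1 (0.53, overlapping Mrpl49 on the opposite strand) and Selenos (0.35). The KDEL receptors return chaperones from the Golgi to the ER. Kdelr1 had 0.19 (limma adjusted p = 0.395) and Kdelr2 −0.071 (0.899), while Kdelr3 was below the filter.

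**Figure D5:**
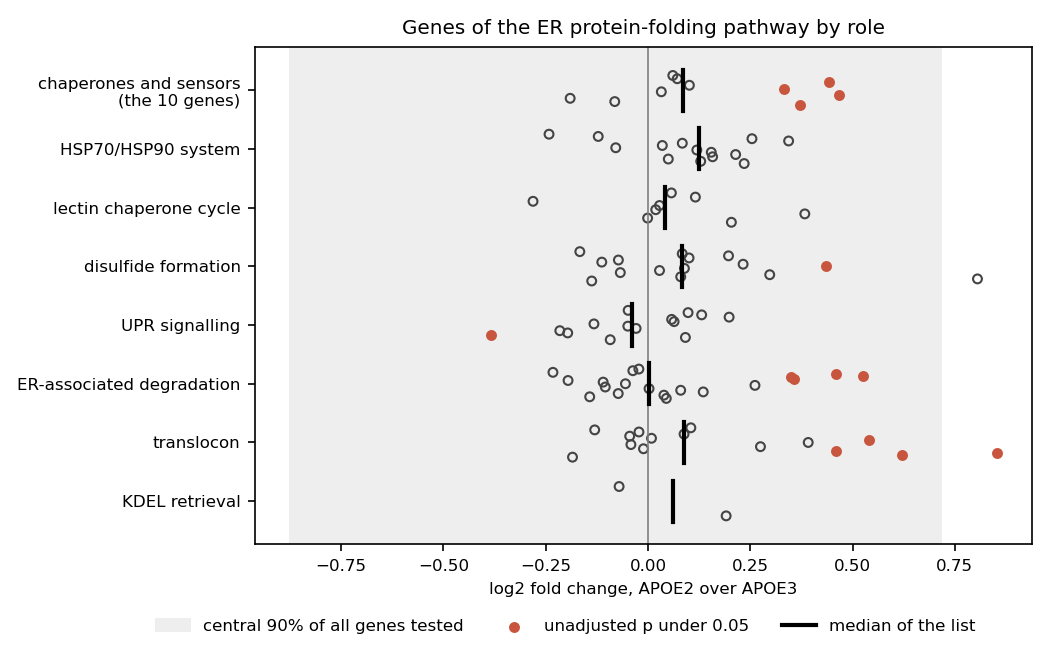
Log2 fold change, APOE2 over APOE3, of every tested gene of the 10-gene list and the 7 lists by role; filled points have an unadjusted limma p under 0.05, thick lines are medians, and the grey band holds the central 90% of all genes tested (−0.87 to 0.72). List medians lie between −0.039 and 0.12, and the filled points to the right include 4 translocon and 4 degradation genes.

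Beside the epithelial difference, the comparison was also fitted with the epithelial marker mean as a covariate. The log2 fold change of Dnajb9 was then 0.79 (limma adjusted p = 0.591), of Atf6 0.47, of Pdia4 0.50 and of Hsp90b1 0.35. The median over the 10 genes was 0.31, and 0 genes of the whole table were called (859 had an unadjusted p under 0.05). With the leukocyte marker mean the 4 values were 0.58, 0.58, 0.70 and 0.40 and the median was 0.24, again with 0 genes called in the whole table (435 at an unadjusted p under 0.05). The marker sums of the 2 genotypes overlapped little (epithelial 636 to 4119 and 3411 to 21670, leukocyte 443 to 2364 and 1871 to 12180). The covariates were not these sums but the mean log2 levels of the markers that passed the filter, and how far those overlapped between genotypes is not given here. Marker level went with genotype, so the parts of the 2 in these fits cannot be told apart.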

How the data were processed

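The submitters' processing notes name STAR 2.6.0, featureCounts, DESeq2 1.28.1 and mm10; strand setting and annotation are not given in the sources used here. Libraries were QuantSeq forward, per the labels' protocols, and read transcript ends. The authors deposited a signal per gene which, from its values, is a count divided by a size factor for each library. All nonzero values were whole multiples of 1 step (100%, tolerance 0.001 reads), so whole reads were recovered. Symbols came from GENCODE M21 (22649 of 22656 identifiers), coordinates from GRCm38, the mm10 assembly.

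Values were analysed as log2(value + 1), which understates changes of low genes, for genes with a mean of at least 10, with limma 3.58.1 (intensity trend, two-sided, threshold 0.05) in R 4.3.3. Alternatives used edgeR 4.0.16 and DESeq2 1.42.0 on recovered reads, other pseudocounts, scalings, filters, variance models, covariates, a replicate block and each library left out. The steps were tested on simulated data. Genes named beyond the 10 are, per list, those past the threshold and the 3 with the smallest p, and the 5 closest to Hspa5; Srpr and Selenos were named after their values were seen, to complete a count. Members and lists were chosen with earlier results of these data known. No molecular identifiers are named in the sources used here, so several reads may stem from 1 molecule.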

Additional observations from a re-analysis of the deposited data

Results flagged for a closer look

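Each of the 10 genes was screened in each genotype (20 screens) with Dixon's criterion, which compares the distance from an extreme library to the next one with the full span of the group. It picked out 1 library, and chance alone gives about 1. It was Pdia4 in APOE3 replicate 2, with 2241 normalised counts against 999 in the next APOE3 library, a gap of 0.92 of the range. This is the library whose removal brought Pdia4 past the limma threshold.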

How the results depend on the processing

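Directions were kept under every setting for Atf6, Canx, Dnajb9, Hsp90b1 and Pdia4. Pdia4 alone changed its call, without APOE3 replicate 2; its log2 fold change ran from 0.365 to 0.698 over the fits that left out 1 library, in which the number of the 10 genes called was 0 to 1. Signs changed for Calr with the epithelial (0.079) and leukocyte (0.148) covariates, for Ern1 with equal totals (−0.0075) and the epithelial covariate (−0.00086), and for Xbp1 with DESeq2 (−0.00097) and replicates 1 to 5 (−0.074, with and without the replicate block). Leaving out 1 library gave −0.0565 to 0.163 for Ern1, −0.0071 to 0.188 for Hspa5, −0.0652 to 0.184 for Pdia6 and −0.138 to 0.175 for Xbp1. The median over the 10 genes moved to 0.31 and 0.24 with the epithelial and leukocyte covariates, to 0.0459 with equal totals and to 0.157 with replicates 1 to 5, and ran from 0.0563 (without APOE3 replicate 1) to 0.18 (without APOE3 replicate 4) when 1 library was left out. In the covariate fits marker level and genotype cannot be told apart, and the cause of the other shifts was not tested.

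Over all genes limma called 51 higher and 47 lower in APOE2. The counts were 5 and 4 without a minimum mean, 0 and 0 without the variance trend (1599 genes at an unadjusted p under 0.05) and with either covariate, 153 and 158 with DESeq2, and 61 and 77 with edgeR. They were 65 and 73 with a pseudocount of 5, 38 and 54 with equal totals, and 5 to 131 higher and 4 to 97 lower when 1 library was left out (lowest without APOE3 replicate 3, highest without APOE3 replicate 1). With the replicate block on replicates 1 to 5 they were 29 and 33, against 19 and 21 without it, an addition made after seeing the data. Deviations of same-numbered libraries were close to uncorrelated over the genes tested (r from −0.0628 to 0.0141). The labels do not say whether the numbers pair libraries, and 1 correlation for each of 5 numbers cannot decide it. Depth limits Ern1 most.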
